A study of Tursiops truncatus with 31 samples.

Results

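The 10 genes examined here belong to mitophagy and autophagy and were chosen by name for their part in the maturation of red cells: BNIP3L, BNIP3, ULK1, GABARAP, GABARAPL1, GABARAPL2, MAP1LC3B, ATG7, ATG5 and BECN1. Of these 10, 9 were found among the 9610 genes of the deposited genome table, and MAP1LC3B was not analysed here. RNA-seq had been run on whole blood RNA, depleted of globin, from 4 healthy bottlenose dolphins under human care, sampled at about monthly intervals over one year, to describe how the blood transcriptome varies with sex, season and individual. In all there were 31 libraries. Of the 2 males, Hua was 5 years old and gave 8 libraries, and Kai was 17 and gave 7. Of the 2 females, Keo was 12 and gave 9 libraries, and Pele was 28 and gave 7. The labels name no treatment, and libraries of every animal were depleted of globin. The seasonal comparison set 8 summer libraries, sampled in July to September, against 8 winter libraries, sampled in December or February. Sex, age and animal cannot be told apart, since each sex was represented by 2 animals.

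Autophagy encloses part of the cell in a double membrane and delivers it to the lysosome. A maturing mammalian red cell uses it to remove its mitochondria, a selective form called mitophagy. In mice, BNIP3L (also called NIX) is the outer mitochondrial membrane receptor through which reticulocytes, the youngest red cells of the circulation, lose their mitochondria, and ULK1 is the kinase that starts the process. The small ubiquitin-like proteins of the ATG8 family, among them the GABARAP group, are attached to the growing membrane and bind such receptors.

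The 9 genes spanned a wide range of levels, given as FPKM, which is scaled to transcript length. BNIP3L (ENSTTRG00000004862) had the highest mean over all libraries, at 1674 ± 759 FPKM (mean ± SD, n = 31 libraries), with a lowest value of 489, a median of 1686 and a highest of 3531. It ranked 99th of 9610 genes, within the top 1.03%. GABARAPL2 (ENSTTRG00000001219), an ATG8 protein also known as GATE-16, followed at 1069 ± 280 FPKM (562 to 1715), and GABARAP (ENSTTRG00000009768), the founding member of its group, at 1058 ± 290 FPKM (525 to 1936). These were the only members above 100 FPKM in every library. BNIP3L was the highest member in 15 of 15 male libraries but in 9 of 16 female ones, and GABARAP had the higher mean in females (1216 FPKM, against 1159 for BNIP3L), where only 2 of 7 libraries of Pele had BNIP3L above GABARAP. In the Cufflinks table their means over all libraries were close, at 828 FPKM for BNIP3L and 823 for GABARAP. BNIP3L exceeded GABARAPL2 in 27 of 31 libraries, whereas GABARAPL2 exceeded GABARAP in 13 of 31, so the places of GABARAPL2 and GABARAP were not separated beyond the spread. Cufflinks means were lower by unlike factors, with ULK1 at 1.92 against 5.67 FPKM, and placed GABARAPL1 (37.7) above BECN1 (33.1). The order of genes at close levels therefore depends on the quantification.

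A second tier was formed by BECN1 (ENSTTRG00000011716), the scaffold of the lipid kinase complex that nucleates the membrane, at 79.7 ± 18.6 FPKM, and GABARAPL1 (ENSTTRG00000009099), the remaining member of the GABARAP group, at 60.5 ± 22.5 FPKM. BECN1 was the higher of these in 23 of 31 libraries. ATG5 (ENSTTRG00000012731), part of the conjugate that attaches ATG8 proteins to lipid, averaged 22.5 ± 8.95 FPKM. ATG7 (ENSTTRG00000016560), the enzyme that activates ATG8 proteins and ATG12, averaged 7.71 ± 3.32 FPKM. ULK1 (ENSTTRG00000000631) averaged 5.67 ± 3.25 FPKM and was listed at 0 in the August library of Hua. BNIP3 (ENSTTRG00000008038), a paralogue of BNIP3L known for its induction by low oxygen, was lowest at 3.89 ± 4.80 FPKM and was listed at 0 in 5 libraries. ATG7 exceeded ULK1 in 21 libraries and ULK1 exceeded BNIP3 in 23, so the order among the lowest 3 was not fixed from library to library. BNIP3L, GABARAPL2 and GABARAP thus stood far above ULK1, ATG5 and ATG7 in the same libraries. This did not hold for the whole of either group, since the ATG8 gene MAP1LC3A averaged 3.47 FPKM in males and 4.78 in females, and the conjugation enzyme ATG3 193 and 188 FPKM. Both were named after their values were seen.

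**Figure D1:**
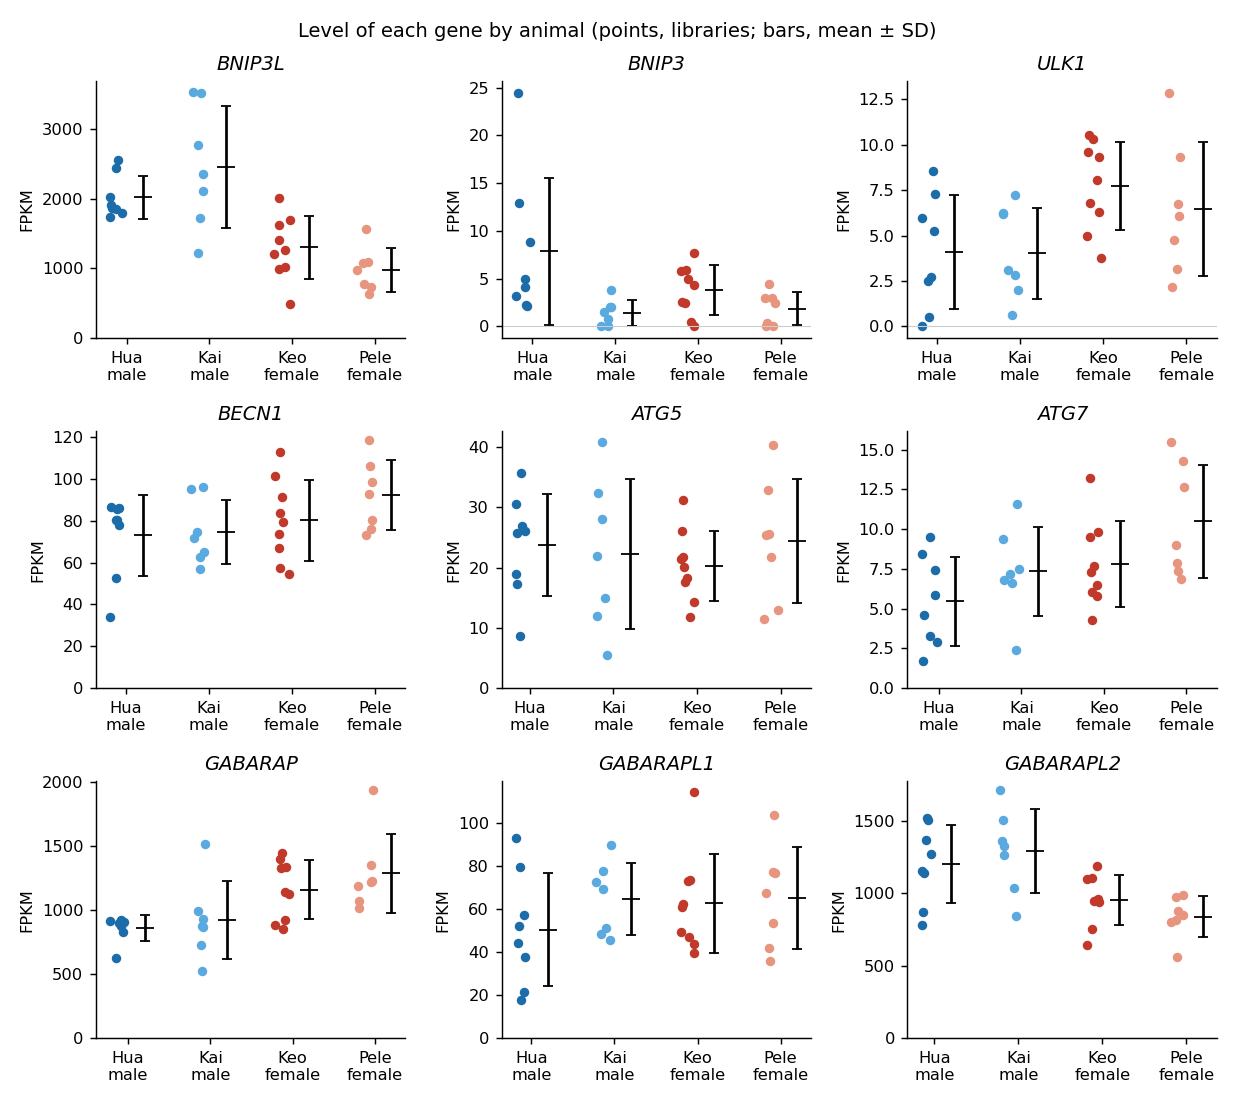
FPKM of the 9 genes in each library (points) by animal, with the mean ± SD of each animal beside them and a linear axis from 0. BNIP3L and GABARAPL2 were higher in both males than in both females on average, GABARAP and ULK1 were higher in both females, and ATG5 had similar means in all 4 animals.

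The first comparison asked how blood differed between the sexes, with libraries as the unit. BNIP3L had the largest log2 difference of the members on deposited values, although ULK1 had a larger one with equal totals, a pseudocount of 0.1, without Kai or without Pele. In males its values ran from 1216 FPKM through a median of 2020 to 3531, and in females from 489 through 1085 to 2015. All 16 female libraries lay below the male median, and 10 of them lay below the lowest male library. The male mean of 2223 ± 652 (n = 15) was 1.92 times the female mean of 1159 ± 416 (n = 16). The log2 difference, on the log2(FPKM + 1) scale used throughout for differences, was −0.98 ± 0.17 (SE) with an adjusted p of 0.000536 by limma.

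GABARAPL2 was lower in females as well. Male libraries ran from 783 FPKM through a median of 1274 to 1715, and female libraries from 562 through 944 to 1190. Again all 16 female libraries were below the male median, although the ranges overlapped. The log2 difference was −0.45 ± 0.12 (adjusted p = 0.0136). Its close relative GABARAP went the other way, from 525 through 905 to 1516 FPKM in males and from 857 through 1204 to 1936 FPKM in females. Of 16 female libraries, 14 were above the male median for GABARAP, and the log2 difference was 0.46 ± 0.12 (adjusted p = 0.0135).

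ULK1 also passed, a gene that the study had singled out on these same samples, so its direction is not independent evidence. It ran from 0 through 3.09 to 8.57 FPKM in males and from 2.19 through 6.78 to 12.9 FPKM in females, with 15 of 16 female libraries above the male median. The log2 difference was 0.86 ± 0.29, and its adjusted p of 0.0449 was close to the threshold. The remaining members did not pass. ATG7 averaged 6.35 ± 2.87 FPKM over male and 8.98 ± 3.29 over female libraries (log2 0.50, adjusted p = 0.11), and BECN1 averaged 73.7 ± 16.9 and 85.3 ± 18.8 (log2 0.22, adjusted p = 0.27). GABARAPL1 had a log2 difference of 0.21 (adjusted p = 0.489), BNIP3 of −0.33 (adjusted p = 0.579) and ATG5 of 0.02 ± 0.23 (adjusted p = 0.968).

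These calls have to be read against all genes, of which 12.1% were called higher in females and 0.937% lower. Of the 9 members, 2 were called higher and 2 lower. The median log2 difference of all genes was 0.34, so the deposited FPKM as a whole sat higher in female libraries. Relative to that median BNIP3L differed by −1.31, GABARAPL2 by −0.79, ULK1 by 0.52 and GABARAP by 0.12. After median-ratio scaling, which sets the typical gene equal between libraries, the median of all genes was 0.04, and 0.593% of genes were called higher and 1.82% lower. BNIP3L (log2 −1.35 ± 0.22, adjusted p = 0.000417) and GABARAPL2 (−0.82 ± 0.15, adjusted p = 0.00181) were still called lower. ULK1 (0.60 ± 0.29, adjusted p = 0.349) and GABARAP (0.08 ± 0.11, adjusted p = 0.813) were no longer called, and the differences of GABARAPL1 (−0.16), ATG5 (−0.34) and BECN1 (−0.15) changed sign without passing.

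**Figure D2:**
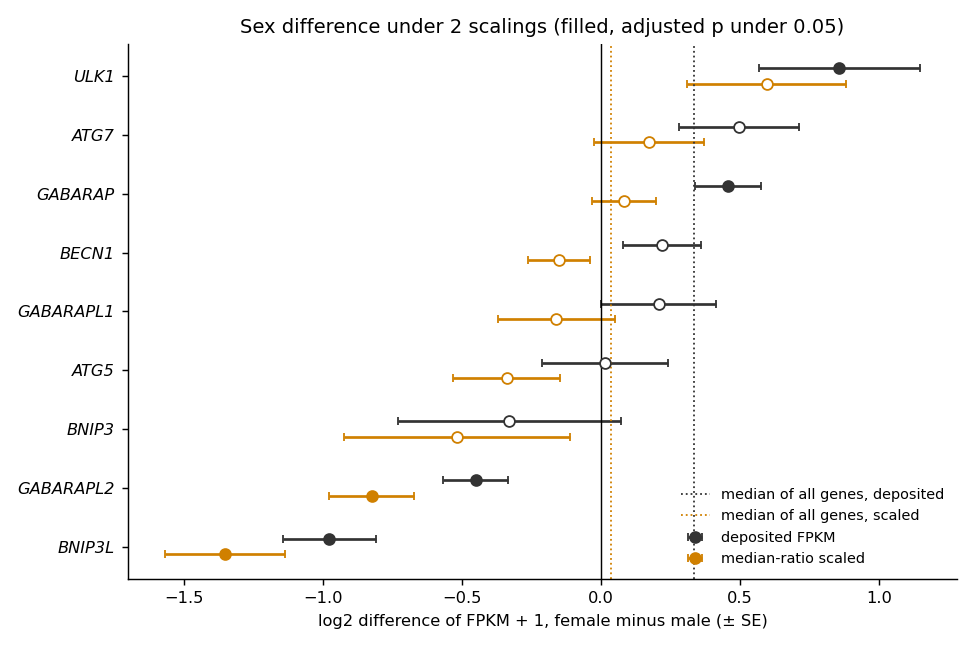
Log2 difference, female minus male, of each gene with its SE, for deposited FPKM (dark) and after median-ratio scaling (orange), with filled points where the adjusted p was under 0.05 and dotted lines at the median of all genes. BNIP3L and GABARAPL2 are filled and left of 0 under both, while GABARAP lies at 0.46 as deposited and at 0.08 after scaling.

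BNIP3L passed in every alternative fit except that on the means of the 4 animals, where its log2 difference was −1.01 with an adjusted p of 0.291. GABARAPL2 did not pass without Kai (adjusted p = 0.0827), without Pele (adjusted p = 0.142) or with each library set to the same total (adjusted p = 0.093). GABARAP did not pass without Hua (adjusted p = 0.0696), Keo (adjusted p = 0.055) or Pele (adjusted p = 0.123), and ULK1 did not pass when any of the 4 animals was left out, nor with the animals as a random block (log2 0.85, adjusted p = 0.079). The p-values treat the repeated libraries of each animal as independent. The random block used a single correlation within animals for all genes, 0.0219 as deposited and 0.0453 after scaling, not one fitted to each member. A test that exchanged whole animals could not reach a p below 0.333.

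Levels were then compared among the 4 animals. For BNIP3L the mean was 2020 ± 307 FPKM over 8 libraries of Hua and 2456 ± 873 over 7 of Kai, against 1300 ± 449 over 9 of Keo and 979 ± 311 over 7 of Pele. The spread differed as well, with 1740 to 2559 FPKM in Hua and 1216 to 3531 FPKM in Kai. The same order of animals held for GABARAPL2, with 1293 ± 288 FPKM for Kai and 1202 ± 272 for Hua, against 954 ± 173 for Keo and 839 ± 142 for Pele. GABARAP gave 863 ± 99.4 FPKM for Hua and 921 ± 305 for Kai, against 1161 ± 231 for Keo and 1287 ± 307 for Pele. ULK1 gave 4.09 ± 3.14 FPKM for Hua and 4.03 ± 2.51 for Kai, against 7.74 ± 2.42 for Keo and 6.45 ± 3.68 for Pele.

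The F test over animals called 10.3% of all genes, and 3 of the 9 members: BNIP3L (adjusted p = 0.00102), GABARAPL2 (adjusted p = 0.0408) and GABARAP (adjusted p = 0.0488). BNIP3 came next (adjusted p = 0.0584), with 7.86 ± 7.66 FPKM for Hua and 1.46 ± 1.36 for Kai, and 3.80 ± 2.61 for Keo and 1.88 ± 1.76 for Pele. Its high mean in Hua included the May library at 24.5 FPKM and the August library at 12.9 FPKM. After scaling, the F test called 7.35% of genes and 2 members, BNIP3L (adjusted p = 0.000369) and GABARAPL2 (adjusted p = 0.00202). Without the July and August libraries of Pele, BNIP3L alone was called (adjusted p = 0.00441). In the Cufflinks table GABARAP was not called (adjusted p = 0.06).

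Because GABARAPL2 and GABARAP moved apart, their ratio within each library was computed after their values had been seen, and it is given with no test. It is free of library scaling. In males it ran from 0.873 through a median of 1.38 to 2.59, and in females from 0.29 through 0.83 to 1.18. GABARAPL2 was the higher of the pair in 11 of 15 male libraries and in 2 of 16 female libraries. The mean ratio was 1.55 ± 0.67 for Kai and 1.43 ± 0.48 for Hua, against 0.85 ± 0.21 for Keo and 0.69 ± 0.20 for Pele.

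From whole blood RNA, fewer cells of a type and less RNA per cell cannot be told apart, so BNIP3L and ULK1 were set beside marker genes of blood cells. The study also measured blood values on samples taken in parallel. It reported a significantly lower haematocrit, the share of blood made up of red cells, in females than in males. Lymphocyte percentage did not differ significantly between the sexes but was lower in Kai than in the other animals. The relation of these blood values to the members was not tested. Of 30 erythroid markers, 26 were measured, and ANK1, AHSP and SELENBP1 were among those not measured. CA1, a carbonic anhydrase abundant in red cells (668 ± 284 FPKM in males, 350 ± 110 in females), TRIM58, an E3 ubiquitin ligase of late erythroblasts (88.4 ± 25.4 and 49.5 ± 14.5), and EPB42, a protein of the red cell membrane skeleton (9.62 ± 3.86 and 5.14 ± 2.3), had the largest differences of the 4 markers called lower in females. CA1 averaged 902 FPKM in Kai and 462 in Hua, against 321 in Keo and 387 in Pele, so Kai carried much of its male mean. No erythroid marker was called higher, and 22 did not pass. The highest log2 differences were those of FECH (0.17) and UROD (0.14), enzymes of haem synthesis, and of GATA1 (0.14), the transcription factor of red cell precursors, with adjusted p from 0.513 to 0.597. The median of the list was −0.23, against 0.34 for all genes, of which 12.1% were called higher in females and 0.937% lower. The summed FPKM of the erythroid list ran from 22772 to 51409 in males and from 18218 to 41982 in females. RHAG was listed at 0 in 12 libraries, KLF1 in 7 and TAL1 in 4.

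Neutrophil markers went the other way. Of 9 measured among 18, 6 were called higher in females, none lower, with a median log2 difference of 0.79 and summed FPKM of 2465 to 8281 in males and 5350 to 16473 in females. MMP8 was listed at 0 in 6 libraries and LCN2 in 3. After median-ratio scaling no neutrophil marker was called by limma. Markers of other blood cells were also called higher in females, 3 of 12 of the monocyte list (median log2 0.45), 2 of 18 of the T cell list (0.50), 2 of 12 of the cytotoxic and NK cell list (0.38) and 2 of 6 of the platelet list (0.66), and none of these was called lower. Over all genes, 12.1% were called higher, with a median of 0.34. The T cell and the cytotoxic and NK cell counts lay near that share and are not read as a result about those cells. After scaling, CSF1R, the receptor that marks monocytes (adjusted p = 0.0201), and SELP, the P-selectin of platelets (adjusted p = 0.0292), were still called. Over all genes, 0.593% were called higher after scaling. None of 11 B cell markers (median 0.36) and none of 6 globin genes was called, and the log2 differences of all 6 globin genes were negative (median −0.22). Globin had been depleted with oligonucleotides against HBA, HBB and HBM, so the globin levels also depend on how far each library was depleted. The part of these marker differences in those of the members was not tested beyond the following within-library values.

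Each marker mean weights all measured genes of its list equally, those near 0 included, so these values depend on which markers are averaged. Single erythroid markers differed between the sexes by log2 −0.89 (CA1) to 0.17 (FECH), against −0.98 for BNIP3L. On the log2 scale, BNIP3L stood 5.61 ± 0.37 above the mean of the erythroid markers of the same library in males and 4.92 ± 0.40 above it in females. The difference of −0.69 was smaller than that of BNIP3L alone and passed a two-sided permutation test (p = 4e-05, adjusted over 4 such relations 8e-05), with 14 of 16 female libraries below the male median. The value was 5.62 ± 0.34 for Hua and 5.60 ± 0.42 for Kai, against 5.03 ± 0.38 for Keo and 4.79 ± 0.41 for Pele. Against the neutrophil markers, BNIP3L stood 3.99 ± 0.66 above the mean in males and 2.26 ± 0.65 in females, a difference of −1.73 (permutation p = 1e-05, the smallest that 100000 resamples can give, adjusted 4e-05). ULK1 lay 3.39 below the erythroid mean in males and 2.24 below it in females, a difference of 1.15 (permutation p = 0.0002, adjusted 0.000267), with all 16 female libraries above the male median. Against the neutrophil mean, the difference of ULK1 was 0.10 (permutation p = 0.699, adjusted 0.699). The erythroid mean was 5.46 in males and 5.16 in females, and the neutrophil mean 7.07 and 7.83. BNIP3L and the neutrophil markers thus moved opposite ways, as did ULK1 and the erythroid markers. The small p-values of those relations add nothing to the separate differences. All 4 permutation tests exchanged single libraries as if independent. Exchanging whole animals could not reach a p below 0.333.

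**Figure D3:**
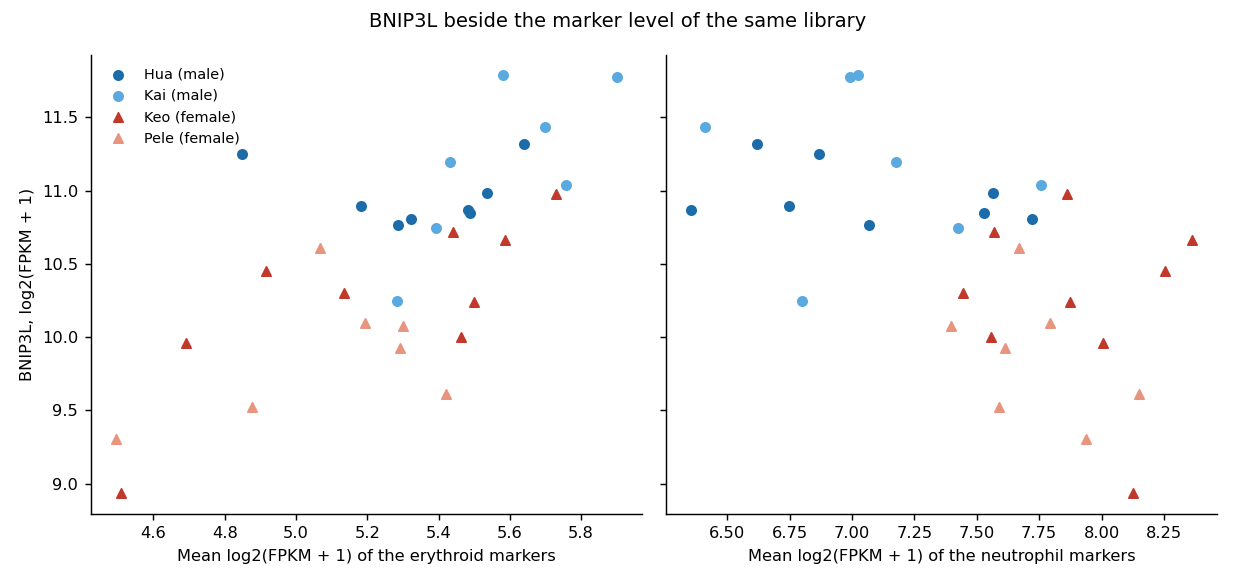
Log2(FPKM + 1) of BNIP3L in each library against the mean log2(FPKM + 1) of the erythroid (left) and neutrophil (right) markers of that library, with males as circles and females as triangles. At like erythroid levels most male libraries lie above the female ones, and the August library of Hua has a high BNIP3L value at a low erythroid mean of 4.85.

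Other genes of the pathway were taken from 9 lists, which held 74 measured genes beside the members. Of these 74, 10 were called higher in females, none lower and 64 did not pass, with a median log2 difference of 0.35 against 0.34 for all genes. After scaling, 3 were called lower and none higher, and the median was 0.04. The 3, named after their values were seen, were NCOA4, the receptor for ferritin (log2 −0.85 scaled, −0.48 as deposited), FIS1, a mitochondrial fission factor (−0.68 and −0.31), and PRKAA1, a catalytic subunit of AMP-activated kinase (−0.79 and −0.44), with scaled adjusted p from 0.00912 to 0.0314. The 10 genes called higher therefore have to be read beside the share of 12.1% of all genes called higher. For the 3 called lower after scaling, the share of all genes was 1.82%.

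In the ULK1 complex, which starts autophagy, 2 of 5 genes were called higher, ULK1 and its regulatory partner ATG13 (4.79 ± 3.87 FPKM against 9.05 ± 5.29, males first, log2 1.03, adjusted p = 0.0413). For this and the following lists, 12.1% of all genes were called higher and 0.937% lower, with a median of 0.34. In the PI3K complex, which holds BECN1, none of 7 was called, and the differences ran from −0.56 for ATG14, a targeting subunit, to 0.54 for UVRAG, its alternative. In the ATG8 conjugation list, which holds ATG5 and ATG7, none of 9 was called, and the ends were ATG4A, a protease that trims ATG8 proteins (−0.17), and ATG12, the partner of ATG5 (0.53). Of 4 measured ATG8 genes, GABARAP was called higher and GABARAPL2 lower. Of 9 genes of membrane supply, ATG2A, a lipid transfer protein, was called higher (7.98 ± 1.99 and 11.6 ± 3.69 FPKM, log2 0.48, adjusted p = 0.0386).

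Among 8 cargo receptors 3 were called higher, beside 12.1% of all genes, whose median log2 difference was 0.34. These were NBR1 (20.2 ± 8.07 and 30.8 ± 9.31 FPKM, log2 0.62), CALCOCO2 (119 ± 35.0 and 169 ± 52.4, log2 0.51) and SQSTM1, also called p62 (85.1 ± 22.3 and 118 ± 32.6, log2 0.45). Their adjusted p ran from 0.0309 to 0.0369. None of the 3 passed after scaling, with adjusted p from 0.436 to 0.765.

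In the list of mitophagy receptors and mitochondrial quality control, 1 of 15 genes was called lower, BNIP3L itself, and 3 were called higher. Over all genes, 0.937% were called lower and 12.1% higher. FUNDC1, another receptor of the outer mitochondrial membrane, averaged 5.73 ± 4.85 FPKM in male and 15.4 ± 9.98 in female libraries (log2 1.44 ± 0.43, adjusted p = 0.0279). MUL1, a mitochondrial ubiquitin ligase, averaged 18.6 ± 7.10 and 29.8 ± 12.3 (log2 0.65, adjusted p = 0.03), and PHB2, an inner membrane protein that can act as a mitophagy receptor, 26.4 ± 10.6 and 37.1 ± 10.3 (log2 0.54, adjusted p = 0.0471). BNIP3L and FUNDC1, both receptors on the mitochondrial surface, thus had differences of opposite sign. None of the 3 passed after scaling, where FUNDC1 had a log2 difference of 1.21 and an adjusted p of 0.156.

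None of 13 genes of autophagosome fusion was called, from STX17 (−0.16) to PLEKHM1 (0.60). Of 13 upstream regulators, 2 were called higher, beside 12.1% of all genes. TFEB, the transcription factor of lysosome and autophagy genes, averaged 41.7 ± 13.2 FPKM in male and 67.4 ± 19.97 in female libraries (log2 0.69, adjusted p = 0.00675), and TSC2, an inhibitor of mTOR signalling, 2.40 ± 1.27 and 4.26 ± 1.53 (log2 0.68, adjusted p = 0.0262). After scaling, their adjusted p were 0.266 and 0.21.

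**Figure D4:**
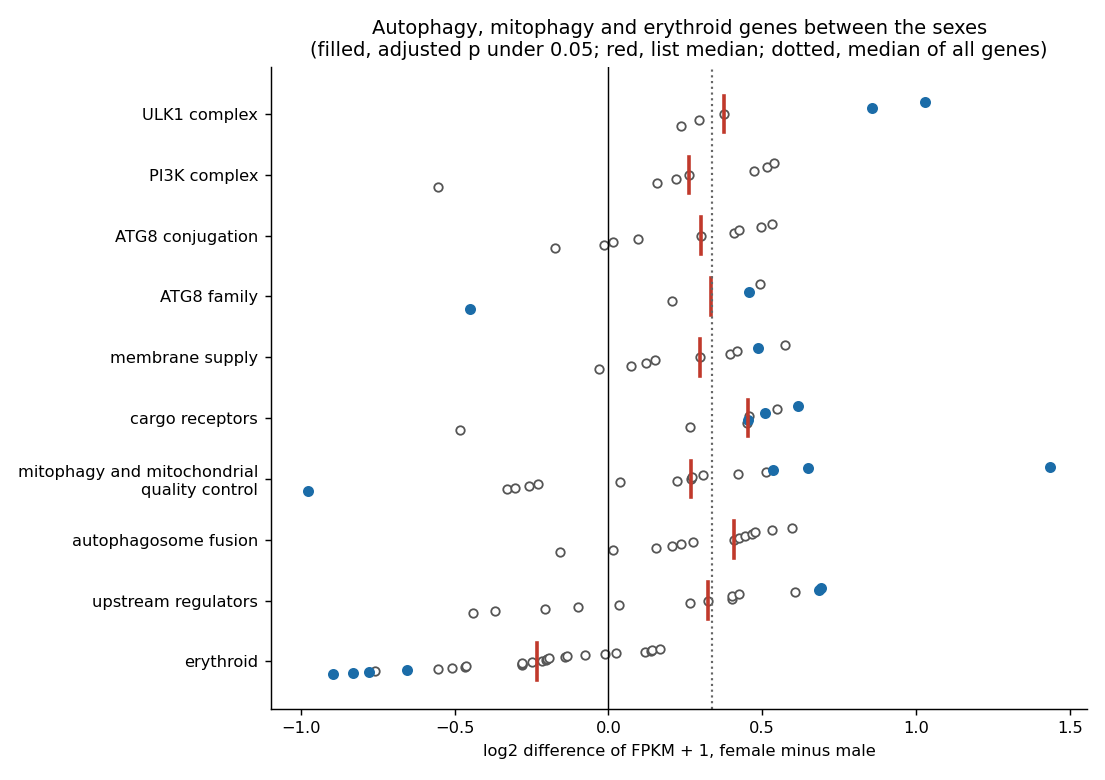
Log2 difference, female minus male, of every measured gene in the 9 pathway lists and the erythroid list, with filled points where the adjusted p was under 0.05, a red bar at each list's median and a dotted line at the median of all genes (0.34). The 9 pathway medians lie between 0.26 and 0.45, and the erythroid median lies at −0.23.

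The second comparison asked whether levels differed between summer and winter. BNIP3L ran from 632 FPKM through a median of 1212 to 3506 in summer (n = 8) and from 489 through 1570 to 2349 in winter (n = 8). The log2 difference, summer minus winter, was 0.12 ± 0.34 (adjusted p = 0.999). ULK1 ran from 0 through 6.13 to 12.9 FPKM in summer and from 0.5 through 4.48 to 9.61 in winter, a log2 difference of 0.44 ± 0.52 (adjusted p = 0.999). Its summer mean exceeded its winter mean in 4 of 4 animals, at 4.29 and 1.61 FPKM for Hua, 4.63 and 3.44 for Kai, 10.3 and 8.83 for Keo and 7.90 and 4.47 for Pele, each from 1 to 3 libraries. The summer and winter libraries overlapped within Hua, Kai and Pele.

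ATG5 had the smallest unadjusted p of the members. It ran from 5.47 through 18.1 to 35.6 FPKM in summer and from 15.0 through 29.0 to 40.3 in winter, with a log2 difference of −0.61 ± 0.34 (adjusted p = 0.999). BECN1 had a lower summer than winter mean in 4 of 4 animals, with 76.9 ± 20.2 FPKM in summer and 89.1 ± 16.7 in winter (log2 −0.23 ± 0.22, adjusted p = 0.999). GABARAPL2 gave 914 ± 220 and 1087 ± 281 FPKM (log2 −0.24 ± 0.21, adjusted p = 0.999). The summer and winter ranges overlapped for every member, and those of BECN1 also within Hua, Kai and Pele. How many of all genes kept one direction in 4 of 4 animals was not counted. No member was called, and 0% of all genes were called by limma, with 285 of 9610 at an unadjusted p under 0.05. Paired within animals, as a fixed block, no member was called either (ATG5 −0.64 ± 0.32, adjusted p = 0.988).

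Whether the seasonal change differed by sex was tested as an interaction, which was likewise called for no member and for 0% of genes, with 233 at an unadjusted p under 0.05 by limma. BNIP3 had the largest estimate, −1.48 ± 1.02 (adjusted p = 1), and BNIP3L one of 0.06 ± 0.47 (adjusted p = 1). An annual cosinor, a cosine and a sine with a period of one year, was called for no member and for 0% of genes over the 31 libraries, with 729 at an unadjusted p under 0.05 by limma. Its amplitude on the log2 scale was 0.11 for BNIP3L (adjusted p = 0.936), 0.31 for ULK1 (adjusted p = 0.799) and 0.19 for GABARAP (adjusted p = 0.728).

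**Figure D5:**
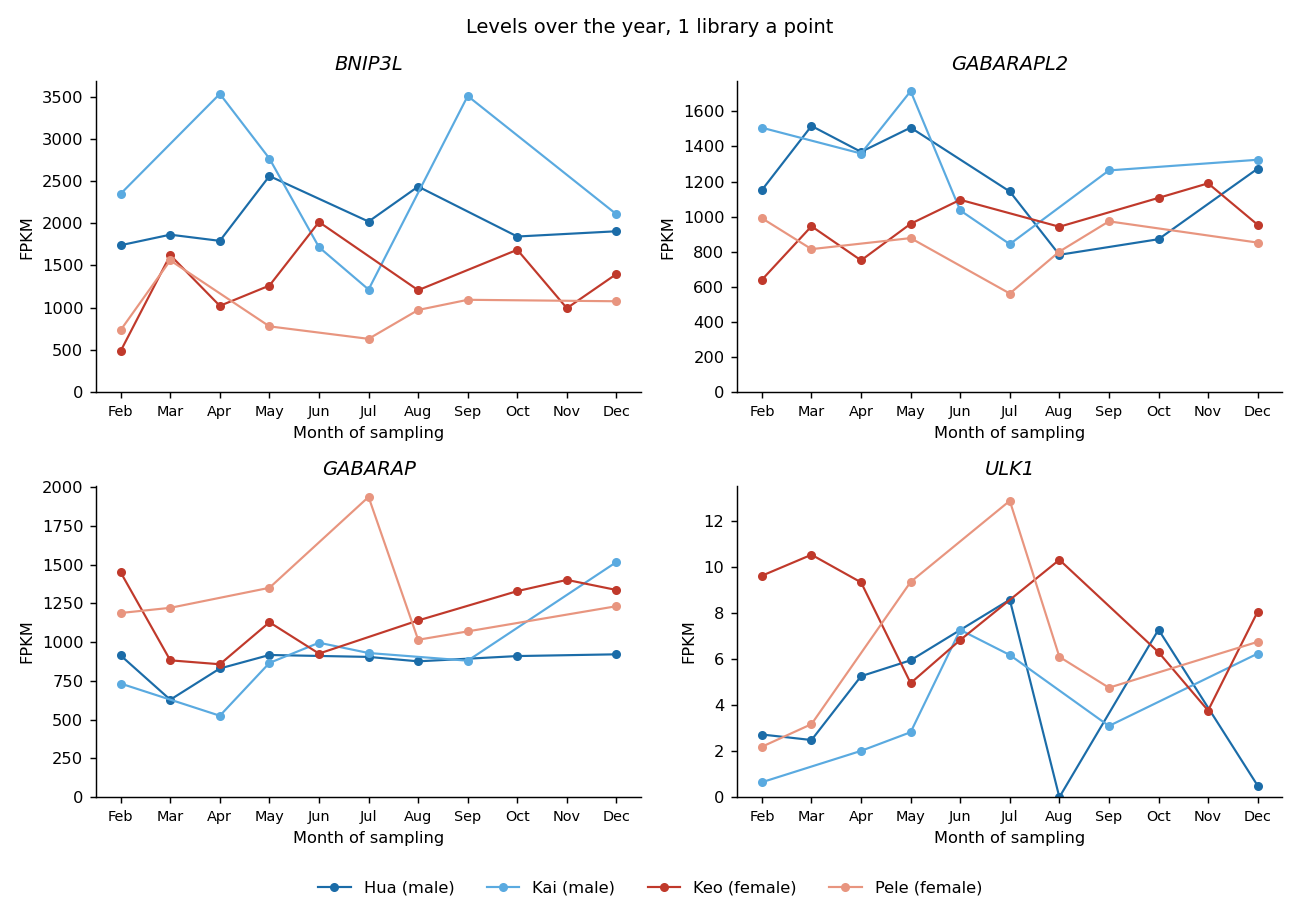
FPKM of BNIP3L, GABARAPL2, GABARAP and ULK1 by month of sampling, 1 point a library, joined within each animal. Each animal's course is irregular, as in Kai, where BNIP3L went from 3531 FPKM in April to 1216 in July and 3506 in September.

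A second quantification of ULK1 came from the deposited de novo table, in which the identifier comp24342_c0 carries the protein accession of ULK1. Its level was 0.416 ± 0.551 FPKM in males, with 5 of 15 libraries listed at 0, and 1.92 ± 2.3 FPKM in females, with 1 of 16 listed at 0. Among the animals it was 2.93 ± 2.68 FPKM for Keo but 0.629 ± 0.431 for Pele, 0.577 ± 0.548 for Kai and 0.275 ± 0.548 for Hua, so that the female mean was carried by Keo. The log2 difference was 0.85 ± 0.26 (adjusted p = 0.0328 by limma over 29702 genes), where 9% of genes were called higher in females. After median-ratio scaling it was 0.70 ± 0.24 (adjusted p = 0.177). Both tables were made from the same libraries and are not independent samples.

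Likeness of pattern was described by Spearman's rho over the 31 scaled libraries, which share their depth, their animals and the differences between animals. BNIP3L and GABARAPL2 had a rho of 0.90, and of 0.69 on deposited values, and within single animals rho ran from 0.29 to 0.82. BNIP3L and ULK1 had a rho of −0.35, and of −0.49 on deposited values, and within animals from −0.86 to 0.35. Scaling changed other pairs more, as BNIP3L and GABARAP had a rho of 0.006 scaled and −0.66 on deposited values. Of all genes with a symbol, those most like BNIP3L were CCNDBP1, a cyclin D binding protein (0.96), ISCA1, an iron-sulfur cluster assembly factor (0.94), RPS7 of the small ribosomal subunit (0.93), CMAS, which activates sialic acid (0.93), and CFAP36 (0.92). On deposited values their rho with BNIP3L lay between 0.79 and 0.89. Their log2 sex differences on deposited values lay between −0.80 and −0.47. Those most like ULK1 were NOTCH1, a cell surface receptor (0.87), ZFP36L1, an RNA-binding protein that promotes decay (0.86), CAMK2G, a calcium-dependent kinase (0.83), ST6GAL1, a sialyltransferase (0.82), and SEMA7A, a semaphorin (0.82). As deposited, their log2 sex differences lay between 0.58 and 0.98, and only that of CAMK2G was called by limma (adjusted p = 0.0221). After scaling these differences lay between 0.29 and 0.68, and none was called. CCNDBP1 also led the genes most like GABARAPL2 (0.96).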

How the data were processed

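FPKM (fragments scaled to transcript length and mapped reads) were used as deposited by the authors. Per the labels and the study's methods, trimmed reads were mapped to the Ensembl dolphin genome turTru1 with Bowtie2 2.2.4 and quantified with RSEM 1.2.18, and a second table came from Cufflinks 2.2.0. A de novo table rested on a Trinity assembly. The authors had limited the RSEM tables to genes whose FPKM averaged 1 or more and exceeded 0 in at least 0.5 of libraries. Sums of FPKM ran from 1122500 to 1625170 per library. The number of reads in each library is unknown, so no counting interval was computed. Deposited EBSeq comparisons (fold changes and posterior probabilities) were not used.

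Genes were matched by symbol. Limma 3.58.1 in R 4.3.3 was fitted to log2(FPKM + 1) over all genes, with eBayes and a mean-variance trend, in two-sided tests. P-values were adjusted by the method of Benjamini and Hochberg across the whole table, and genes were called below an adjusted p of 0.05. The pseudocount of 1 understates changes of low genes. Libraries were the unit, following the study. The script was tested on simulated data, where the smaller simulated sex difference was recovered only in part at this spread and number of libraries. A member that was not called may therefore still differ. Median-ratio size factors ran from 0.59 to 1.64, with a mean of 0.925 in males and 1.19 in females. Relations to markers were tested by permutation of single libraries, not of animals (100000 resamples, or exact enumeration where a group held fewer than 10 libraries) in Python.

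The alternatives were 2 other scalings, 2 other pseudocounts, a stricter filter, the Cufflinks table, no trend, the animals as a block or as means, and leaving out animals or libraries, among them the July and August libraries of Pele, which stood apart in earlier results. Median-ratio scaling with animals as a random block, and Cufflinks values with that scaling, were added after seeing the data.

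The members, lists and tests were chosen with earlier results of these data known. The study had itself named ULK1 between the sexes. Named genes were all members, the genes of each pathway list called between the sexes (up to 3 either way, otherwise 1 at either end), 3 at either end of the erythroid list, and the 5 most like BNIP3L and ULK1. NCOA4, FIS1, PRKAA1, MAP1LC3A, ATG3, CSF1R, SELP and the ratio of GABARAPL2 to GABARAP were singled out after their values were seen. The de novo identifier planned for ATG5 had conflicting annotation and was not used. Some genes of the marker lists are not reported here. No sequences or coordinates are given, since the reference at hand was another build.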

Additional observations from a re-analysis of the deposited data

Results flagged for a closer look

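Within each animal, the 9 genes were examined for a highest or lowest library that stood apart from the rest by Dixon's criterion. Of 36 groups examined, 3 had such a library, and chance gives about 1 in 20. GABARAP was 628.5 FPKM in the March library of Hua, while the next lowest library of that animal was at 830. GABARAP was 1936 FPKM in the July library of Pele, with 1350 as the next highest. GABARAPL1 was 114 FPKM in the August library of Keo, with 73.4 as the next highest.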

How the results depend on the processing

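Differences are on the log2 scale, female minus male unless named otherwise, and the causes of the changes listed here were not tested beyond what each alternative changes by construction. Of 575 values recomputed under alternatives, 500 kept their direction and their side of the threshold (for counts and levels, stayed close), and no member became called that was not. Many of the 575 were seasonal values, with no member called to begin with, so the 500 say little about the called sex differences. Of 16 alternatives for each sex difference, BNIP3L was called in 15, GABARAPL2 in 12, GABARAP in 9 and ULK1 in 4. With median-ratio scaling, ULK1 (0.5963) and GABARAP (0.08227) were no longer called, GABARAPL1 (−0.1597), ATG5 (−0.3386) and BECN1 (−0.1504) changed sign, and 2 members were called in place of 4. Equal totals left GABARAPL2 at −0.3108, not called. A pseudocount of 0.1 gave ULK1 1.266, not called, and one of 5 gave ATG5 −0.003226. Cufflinks values gave BNIP3 0.05354, ULK1 0.5786, not called, ATG5 −0.0995, and ULK1 against the neutrophil markers −0.2413. With Cufflinks, ULK1 averaged 1.925 FPKM and BNIP3L 828.4. Without the July and August libraries of Pele, ULK1 was 0.8028, not called, and 1 member was called among the animals in place of 3, against 2 with Cufflinks values, which left out GABARAP. Without Hua, 2 members were called (BNIP3 0.5618, GABARAPL1 −0.06078, and, not called, ULK1 0.7813 and GABARAP 0.4349). Without Kai, 2 were called (ATG5 −0.08438, and, not called, ULK1 0.9239 and GABARAPL2 −0.4007). Without Keo, 2 were called, but not ULK1 (0.673) or GABARAP (0.5382). Without Pele, 1 was called (ATG5 −0.06754, and, not called, ULK1 1.001, GABARAP 0.3927 and GABARAPL2 −0.3708). With animals as a random block ULK1 was 0.8536, not called. Animal means called 0 members and 0 genes with limma, 1539 at an unadjusted p under 0.05 (BNIP3L −1.007, ULK1 0.8321, GABARAP 0.4641, GABARAPL2 −0.4655). Of the 2 fits added after seeing the data, scaling with the random block called 2 members (ULK1 0.5871 and GABARAP 0.08132 not called, GABARAPL1 −0.1664, ATG5 −0.3364, BECN1 −0.1503), and scaled Cufflinks values called 2 (ULK1 0.4047 and GABARAP 0.0477 not called, ATG5 −0.4065, BECN1 −0.1948). Over all genes, 1252 were called, against 232 with scaling, 2144 with equal totals, 564 without Kai, 295 without Keo, 225 without Pele and 690 with the random block, and 85 and 225 with the added fits. Scaled de novo ULK1 was 0.6974, not called. For summer minus winter, GABARAPL1 was 0.07317 without Kai and BNIP3L −0.07121 without Keo. Leaving out 1 library at a time gave −0.0865 to 0.285 for BNIP3L, −0.26 to 0.117 for GABARAPL1 and −0.0193 to 0.276 for ATG7, with no member called (0 to 1 of all genes). The seasonal change by sex of ULK1 was 0.02662 with animals as a fixed block. The seasonal comparison paired within animals, with animals as a fixed block, called 0 members and 0 genes with limma, 338 at an unadjusted p under 0.05, and changed the direction of no member. BNIP3 has no value where a mean of at least 5 FPKM was required. With 2 animals a sex, these data limit any statement to the 4 animals sampled.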
